A study of Mus musculus with 9 samples.

Results

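The genes of glycolysis, of glucose and lactate handling and of the hypoxia-inducible factor HIF-1 were followed in macrophages treated with lipopolysaccharide (LPS), the cell-wall endotoxin of Gram-negative bacteria. A list of 35 genes was matched by Ensembl identifier to the 22165 gene rows of the deposited count table, and each of the 35 had a row. The list held 16 glycolytic enzymes, 5 genes of glucose and lactate handling, Hif1a itself and 13 HIF-1 targets outside glycolysis. The question was how the glycolytic enzymes and the non-glycolytic HIF-1 targets compared across the groups.

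The cells were bone marrow-derived macrophages, grown in culture from the marrow of C57BL/6N mice aged 6 to 16 weeks. Of the 9 libraries, 3 were labelled Irg1-/- and had received LPS and then, 4 h later, itaconate at 1 mM (called itaconate below). A further 3 were labelled Irg1-/- with LPS alone (KO), and 3 were labelled wildtype with LPS alone (WT). Per the protocols, poly(A) RNA was primed from its tail with barcoded oligo-dT, which concentrates reads at the 3′ end, and levels of different genes are not compared here. LPS was given at 100 ng/mL, and all cells were labelled as harvested 24 h after stimulation, with no library from cells without LPS. Irg1, now named Acod1, encodes the mitochondrial enzyme that makes itaconate from cis-aconitate. Whether replicates came from separate mice or cultures is not stated, and a p-value here measures only the spread between these libraries, which may be technical.

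LPS-activated macrophages are known to take up more glucose and to convert it to lactate. HIF-1 is a transcription factor made of a regulated subunit, encoded by Hif1a, and a constant partner. Prolyl hydroxylases mark the regulated subunit for destruction in the presence of oxygen, iron and 2-oxoglutarate, and LPS raises Hif1a transcription. Its targets include most glycolytic enzymes, lactate exporters, regulators of mitochondrial removal and the hydroxylases that switch it off.

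Irg1 reads went against the labels of 4 libraries, so every direction between labelled groups below carries that conflict. The libraries labelled itaconate held 94, 8 and 60716 Irg1 reads in replicates 1, 2 and 3. Those labelled KO held 154, 170 and 44920 reads, and those labelled WT held 94, 117 and 31169 reads. The libraries labelled itaconate replicate 3, KO replicate 3, and WT replicates 1 and 2 are therefore the 4 that conflict with a knockout or a wild-type label. Which part of Irg1 was deleted is not stated, and a library of 3′ end reads may miss a deletion elsewhere in the gene. Whether such a miss bears on any of the 4 libraries was not tested. The other libraries labelled knockout held 8 to 170 reads. The cause of the conflict was not tested. Values without the 4 conflicting libraries are given below for the class medians and for some genes, but not for every gene. That setting keeps only 1 library labelled WT, replicate 3, so its values against WT rest on that library.

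The libraries held 7361671 to 20430359 reads in genes. A gene with no read could have had up to 3, worth 0.147 to 0.408 CPM, the read count scaled to a common library size, and this limit covers counting error only. Levels below are CPM after scaling by the trimmed mean of M-values (TMM). Differences are log2 fold changes ± SE from edgeR, of the first label named over the second, n = 3 libraries each. All 10 macrophage markers, such as Adgre1, Csf1r and Lyz2, were detected in each library. Their summed level was 12691 to 16105 CPM under the label itaconate, 11218 to 14767 CPM under KO and 14518 to 17577 CPM under WT. Summed markers of T cells, B cells, dendritic cells, mast cells and erythroid cells each stayed at or below 1.40 CPM in every library. Neutrophil markers summed to 1.80 to 10.6 CPM, and fibroblast markers, mainly the collagen gene Col1a2, to 166 to 271 CPM. In bulk RNA, fewer cells of a type and less RNA per cell cannot be told apart. Replicate 3 labelled itaconate was the least like the rest, correlating with the other 8 libraries at a mean of 0.909 in log2 CPM, against 0.939 to 0.954 for those. Mitochondrially encoded genes made up 0.71% of its gene reads, against 1.27% to 2.57% in the others.

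A number before the barcode in the description labels is read here as the pool in which a library was made, although the labels do not define it. On that reading, pool 1 holds all libraries labelled WT and replicates 1 and 2 labelled KO. Pool 2 holds replicate 3 labelled KO and replicate 1 labelled itaconate, and pools 3 and 4 hold 1 library each, replicates 2 and 3 labelled itaconate. A fit with pool as a term therefore sets the label itaconate against KO through pool 2 alone, that is replicate 1 labelled itaconate over replicate 3 labelled KO, and reaches WT through the KO libraries of pool 1. The rest of the difference cannot be told apart from the pool.

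Promoters are described first, because HIF-1 binds a short core, ACGTG or GCGTG, and they show how often that core lies near the start of these genes. RefSeq (GRCm38.p6) gave a window from 250 bases before to 50 after the start for 33 of the 35 genes, all but Bnip3l and Ndrg1. Either core, on either strand, was found in 14 of 16 glycolytic enzymes, all 5 genes of glucose and lactate handling, Hif1a and all 11 non-glycolytic HIF-1 targets with a window. That is 31 of 33 genes (93.9%), against 46.7% of the 27025 genes with a window. The windows of the 33 genes were richer in G and C (median 64.0%, against 52.7% over all genes) and more numerous per gene (1.45, against 1.22), so the shares are not of like windows. The palindrome CACGTG, which holds ACGTG on both strands, lay in 15.2% of the 33 genes and 8.09% of all genes. A match is a description of the sequence and not evidence of binding.

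The stretches below span the cores of 6 genes with a single RefSeq start, with 15 bases on either side where the window and the 30-base limit past the start allowed. Capitals mark ACGTG or GCGTG on the printed strand, or CACGT or CACGC where the core lies on the opposite strand. Pgk1 and Slc2a1 were lowest, and Slc16a1, Bnip3 and Ero1l highest, in the library labelled itaconate replicate 3, and Egln3 had its highest level in a library labelled WT.
Pgk1 (chrX:106186935-106186988, plus strand): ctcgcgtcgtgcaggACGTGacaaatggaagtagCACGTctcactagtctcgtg
Slc2a1 (chr4:119108669-119108728, plus strand): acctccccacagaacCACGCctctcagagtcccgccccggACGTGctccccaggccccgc
Slc16a1 (chr3:104638449-104638693, plus strand): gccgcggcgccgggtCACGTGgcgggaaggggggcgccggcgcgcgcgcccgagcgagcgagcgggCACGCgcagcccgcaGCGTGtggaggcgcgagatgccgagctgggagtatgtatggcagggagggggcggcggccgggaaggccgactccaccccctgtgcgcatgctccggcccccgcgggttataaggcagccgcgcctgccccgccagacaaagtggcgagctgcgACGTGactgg
Egln3 (chr12:54204084-54204118, minus strand): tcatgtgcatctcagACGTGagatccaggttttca
Bnip3 (chr7:138909522-138909638, minus strand): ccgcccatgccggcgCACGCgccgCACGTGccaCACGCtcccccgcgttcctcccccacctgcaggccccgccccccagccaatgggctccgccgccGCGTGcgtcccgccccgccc
Ero1l (chr14:45318616-45318715, minus strand): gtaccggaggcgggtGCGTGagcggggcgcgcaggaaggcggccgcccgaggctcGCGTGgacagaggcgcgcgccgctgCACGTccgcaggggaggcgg

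Pgk1 and Slc2a1 each hold 2 cores in the printed stretch, Slc16a1 and Bnip3 hold 5, Ero1l holds 3 and Egln3 holds 1. In Slc16a1 and Bnip3, 2 of the 5 overlap, as the cores of both strands of a CACGTG. The 6 genes were chosen with their values known, so the number of cores beside each is a description and was not tested against its level.

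The first steps of glycolysis trap and commit glucose. Hk1, a hexokinase active in most tissues (ENSMUSG00000037012.18, chr10:62268855-62379908 on the minus strand of GRCm38), measured 38.7, 66.4 and 58.3 CPM in the libraries labelled itaconate, against 37.4, 50.7 and 54.5 CPM in those labelled KO and 141, 83.2 and 75.7 CPM in those labelled WT. All 3 libraries labelled WT lay above all 6 others, and the groups labelled itaconate and KO overlapped. Such a gap below WT was found in 7.25% of all genes tested for itaconate and in 5.76% for KO. The share of genes with both gaps at once was not counted, so the gap does not set Hk1 apart. The means were 54.5 ± 14.3 CPM for the label itaconate, 47.5 ± 8.97 CPM for the label KO and 100.1 ± 36.0 CPM for WT (SD, n = 3 each). Hk1 differed by -0.88 ± 0.32 between the labels itaconate and WT and by -1.08 ± 0.32 between KO and WT (log2 fold change ± SE). The edgeR adjusted p-values were 0.524 and 0.995, so neither passed the threshold of 0.05. Without the library labelled WT replicate 1, which was the highest, the values were -0.55 and -0.74. Without the 4 libraries that conflict with their labels they were -0.54 and -0.76, with WT replicate 3 as the only library labelled WT.

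Hk2, the hexokinase known to be induced in activated macrophages, stood at 202, 282 and 295 CPM in the 3 libraries labelled itaconate, at 415, 318 and 221 CPM in the 3 labelled KO and at 239, 305 and 261 CPM in the 3 labelled WT. The 3 groups overlapped, and the highest value came from the library labelled KO replicate 1. Hk3, a hexokinase of myeloid cells, spanned 104 to 156 CPM in the libraries labelled itaconate, 82.7 to 182 under the label KO and 97.3 to 154 under WT. Gpi1, which isomerises glucose phosphate, spanned 134 to 194 CPM in the libraries labelled itaconate, 171 to 181 under the label KO and 147 to 235 under WT. The groups overlapped for both. The phosphofructokinases make the committed step. Pfkl, the liver form, had 75.1, 51.7 and 31.2 CPM with itaconate, 49.95, 69.4 and 75.2 CPM under the label KO and 72.8, 75.1 and 80.6 CPM under WT. The values labelled WT were the closest together and the lowest value was that of the library labelled itaconate replicate 3, within groups that overlapped. Pfkp, the platelet form, spanned 23.8 to 32.4 CPM in the libraries labelled itaconate, 22.9 to 28.0 under the label KO and 18.6 to 34.9 under WT. Pfkfb3 and Pfkfb4 set the level of the activator of phosphofructokinase, by making and breaking it. Pfkfb3 spanned 202 to 267 CPM in the libraries labelled itaconate, 212 to 395 under the label KO and 213 to 342 under WT. Pfkfb4 spanned 6.55 to 12.3 CPM in the libraries labelled itaconate, 8.56 to 12.1 under the label KO and 7.67 to 14.4 under WT. For these 3 genes, too, every pair of groups overlapped.

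**Figure D1:**
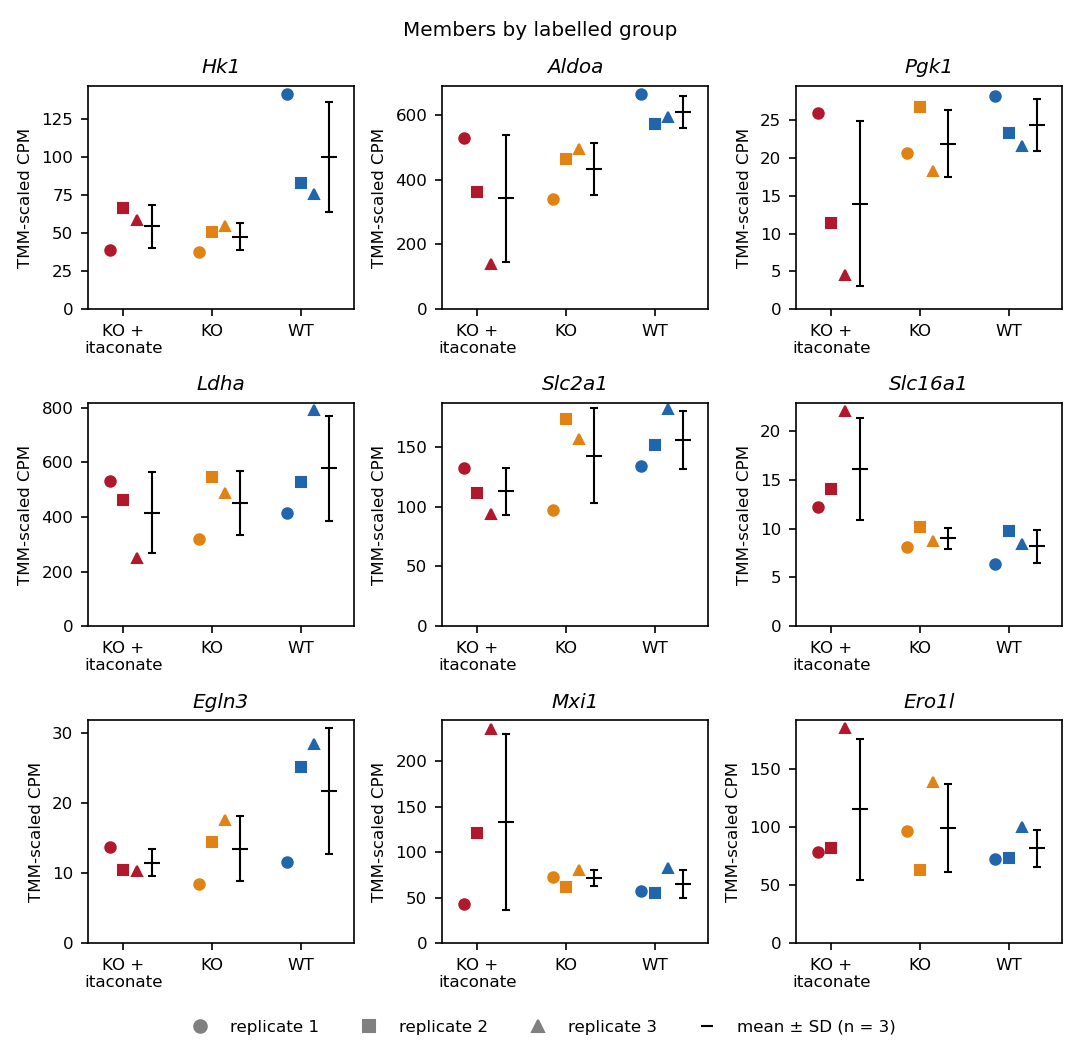
TMM-scaled CPM (vertical axis, linear and starting at 0) of 9 members in each library, by labelled group from left to right (KO with itaconate, KO, WT). Symbols give the replicate number, and the black bar is the mean ± SD of 3 libraries. Hk1 is highest in the 3 libraries labelled WT, Slc16a1 in the 3 labelled itaconate, and Aldoa and Pgk1 have their lowest point in the library labelled itaconate replicate 3.

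The splitting and energy-yielding steps follow. Aldoa, the aldolase of muscle and most other tissues (ENSMUSG00000030695.13, chr7:126795234-126800751 on the minus strand of GRCm38), measured 529.8, 363 and 138 CPM in the libraries labelled itaconate, against 343, 464 and 495 CPM in those labelled KO and 665, 572 and 595 CPM in those labelled WT. The libraries labelled WT lay above all others, and those labelled itaconate ran from near the WT values down to the lowest of all 9. The shares of all genes given for Hk1 stand beside this gap too (7.25% for itaconate below WT, 5.76% for KO below WT). Aldoa differed by -0.83 ± 0.38 between the labels itaconate and WT, at an edgeR adjusted p of 0.553, and by -0.49 ± 0.38 between KO and WT. Without the library labelled itaconate replicate 3, the itaconate value against WT was -0.45. Without the 4 conflicting libraries it was -0.42, with WT replicate 3 as the only library labelled WT. The annotation holds 2 near-identical copies of the Aldoa 3′ end, so its count is less certain. The same limit applies to Eno1 (4 copies), Bnip3 (2 copies), and Gpi1, Tpi1, Pkm and Higd1a (1 copy each).

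Pgk1, the first ATP-making step (ENSMUSG00000062070.12, chrX:106187100-106203699 on the plus strand of GRCm38), stood at 25.9, 11.4 and 4.54 CPM in the 3 libraries labelled itaconate, at 20.7, 26.8 and 18.3 CPM in the 3 labelled KO and at 28.3, 23.3 and 21.7 CPM in the 3 labelled WT. Its level in the library labelled itaconate replicate 3 was 4.95 times lower than the median of the other 8 libraries, and in replicate 2 it was also below all libraries labelled KO and WT. Replicate 1 lay inside the range of those 6 libraries. Pgk1 differed by -0.65 ± 0.45 between the labels itaconate and KO, by -0.24 without replicate 3, and by 0.50 with pool as a term.

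Tpi1, the isomerase of the triose phosphates, spanned 353 to 449 CPM in the libraries labelled itaconate, 337 to 475 under the label KO and 436 to 583 under WT. Aldoc, the aldolase known from brain, spanned 4.86 to 9.31 CPM in the libraries labelled itaconate, 4.23 to 7.78 under the label KO and 6.00 to 10.2 under WT. Neither separated any pair of groups. Gapdh, which makes the reducing equivalents of glycolysis, had 117, 169 and 89.0 CPM with itaconate, 64.8, 104 and 107 CPM under the label KO and 92.1, 145 and 179.8 CPM under WT. The groups overlapped, and 105 annotated copies, of which 102 are pseudogenes, are near-identical to its 3′ end. Reads that align to several places were set aside by the counter, so the Gapdh level is uncertain. Pgam1, the phosphoglycerate mutase, spanned 423 to 638 CPM in the libraries labelled itaconate, 339.9 to 621 under the label KO and 534 to 777 under WT. Eno1, the enolase, was 81.5 CPM in the library labelled itaconate replicate 3 and 143 to 214 CPM in the other 8. Pkm, the pyruvate kinase, was 423 CPM there and 498 to 1004 CPM in the others. Both were thus lowest in the same library that was lowest for Aldoa and Pgk1.

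Glucose enters through Slc2a1 (GLUT1), and lactate is made by Ldha and leaves through monocarboxylate transporters. Slc2a1 (ENSMUSG00000028645.10, chr4:119108711-119137983 on the plus strand of GRCm38) measured 133, 111 and 94.1 CPM in the libraries labelled itaconate, against 97.5, 173 and 157 CPM in those labelled KO and 134, 152 and 182 CPM in those labelled WT. All 3 values labelled itaconate lay below all 3 labelled WT, with a difference of -0.47 ± 0.29 (edgeR adjusted p 0.647), and overlapped those labelled KO. Such a gap below WT was found in 7.25% of all genes tested. Ldha, the lactate dehydrogenase subunit that favours lactate, stood at 534, 463 and 249.6 CPM in the 3 libraries labelled itaconate, at 318, 546 and 489 CPM in the 3 labelled KO and at 416, 529.8 and 791 CPM in the 3 labelled WT. The groups overlapped, with the extremes in the libraries labelled itaconate replicate 3 and WT replicate 3, and 5 pseudogene copies are near-identical to its 3′ end.

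Slc16a1 encodes the monocarboxylate transporter MCT1, which carries lactate and pyruvate in both directions (ENSMUSG00000032902.1, chr3:104638668-104658462 on the plus strand of GRCm38). It had 12.2, 14.0 and 22.1 CPM with itaconate, 8.11, 10.2 and 8.75 CPM under the label KO and 6.36, 9.75 and 8.42 CPM under WT. The means were 16.1 ± 5.27 CPM for the label itaconate, 9.02 ± 1.07 CPM for the label KO and 8.18 ± 1.71 CPM for WT (SD, n = 3 each). All 3 libraries labelled itaconate lay above all 6 others, and it was the only one of the 35 genes to do so. Such a gap above the 3 KO values was found in 5.61% of all genes tested, and above the 3 WT values in 7.3%. The share of genes above both groups at once was not counted, so 1 of 35 has no background here and does not set Slc16a1 apart. Slc16a1 differed by 0.84 ± 0.33 between the labels itaconate and KO (edgeR adjusted p 0.539). Against WT the difference was 0.97 ± 0.33 (edgeR adjusted p 0.518). When itaconate replicate 3 was left out the values were 0.53 and 0.68, and without the 4 libraries that conflict with their labels they were 0.49 and 0.63. With pool as a term they were 0.48 and 0.63. As the 3 values labelled itaconate lay above all 6 others, leaving libraries out could change the size of the difference but not its direction. The pool value against KO sets replicate 1 labelled itaconate over replicate 3 labelled KO alone. No value passed the threshold.

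Slc16a3 encodes MCT4, the high-capacity lactate exporter and a HIF-1 target. It spanned 102 to 126 CPM in the libraries labelled itaconate, 74.9 to 124 under the label KO and 114 to 168 under WT, and its groups overlapped. Pdk1, a kinase that holds back the entry of pyruvate into the citric acid cycle, spanned 22.5 to 38.5 CPM in the libraries labelled itaconate, 26.9 to 35.8 under the label KO and 23.1 to 37.3 under WT.

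Hif1a (ENSMUSG00000021109.13, chr12:73901375-73947530 on the plus strand of GRCm38) measured 340.5, 513 and 795 CPM in the libraries labelled itaconate, against 481, 387 and 423 CPM in those labelled KO and 439, 412 and 398 CPM in those labelled WT. The values labelled KO and WT were close together, and those labelled itaconate held both the lowest and the highest of the 9. The difference between the labels itaconate and KO was 0.35 ± 0.30, and it was -0.02 without the library labelled itaconate replicate 3 and -0.31 with pool as a term. HIF-1 activity is set mainly by the stability of the protein, which RNA counts do not measure.

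Among the targets that close the oxygen-sensing loop, Egln3 encodes the prolyl hydroxylase PHD3 (ENSMUSG00000035105.5, chr12:54178981-54203860 on the minus strand of GRCm38). It stood at 13.7, 10.4 and 10.2 CPM in the 3 libraries labelled itaconate, at 8.45, 14.4 and 17.6 CPM in the 3 labelled KO and at 11.5, 25.2 and 28.5 CPM in the 3 labelled WT. The values labelled itaconate lay within a narrow range, and 2 of the 3 labelled WT lay above all others. Egln3 differed by -0.92 ± 0.37 between the labels itaconate and WT and by -0.69 ± 0.37 between KO and WT, at edgeR adjusted p-values of 0.542 and 0.995. Without the 4 conflicting libraries these differences were -1.24 and -1.30. That leaves WT replicate 3 as the only library labelled WT, and its Egln3 level, 28.5 CPM, was the highest of all libraries. Egln1, which encodes the main oxygen-sensing hydroxylase PHD2, spanned 58.4 to 91.5 CPM in the libraries labelled itaconate, 54.5 to 74.6 under the label KO and 62.1 to 80.7 under WT.

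Mxi1, which encodes an antagonist of the transcription factor Myc (ENSMUSG00000025025.13, chr19:53310518-53375810 on the plus strand of GRCm38), had 43.0, 122 and 236 CPM with itaconate, 72.5, 61.9 and 80.4 CPM under the label KO and 56.8, 54.9 and 83.1 CPM under WT. Replicates 2 and 3 labelled itaconate lay above all libraries labelled KO and WT, and replicate 1 lay below all of them. Mxi1 differed by 0.90 ± 0.44 and 1.04 ± 0.44 for the label itaconate against KO and WT (edgeR adjusted p 0.61 and 0.549). Without the library labelled itaconate replicate 3 these were 0.18 and 0.34, and with pool as a term they turned to -0.90 and -0.85. Without the 4 conflicting libraries they were 0.25 and -0.03.

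The mitophagy receptors Bnip3 and Bnip3l help to clear mitochondria in low oxygen. Bnip3 measured 75.2, 96.6 and 138 CPM in the libraries labelled itaconate, against 60.5, 82.9 and 115 CPM in those labelled KO and 74.1, 66.9 and 117 CPM in those labelled WT. Bnip3l stood at 656, 521 and 902 CPM in the 3 libraries labelled itaconate, at 512, 625 and 660.4 CPM in the 3 labelled KO and at 568, 435 and 460.0 CPM in the 3 labelled WT. For both genes the highest value was that of the library labelled itaconate replicate 3, and the groups overlapped. Higd1a, a small mitochondrial protein gene, had 82.0, 75.5 and 52.8 CPM with itaconate, 64.0, 86.9 and 90.8 CPM under the label KO and 118, 78.2 and 103 CPM under WT. In contrast to the other mitochondrial targets, its lowest value was in that library.

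Ero1l, which makes disulfide bonds in the endoplasmic reticulum, measured 78.2, 81.7 and 186 CPM in the libraries labelled itaconate, against 96.2, 63.1 and 139 CPM in those labelled KO and 72.1, 72.9 and 100.0 CPM in those labelled WT. Kdm3a, a histone demethylase gene, was 128 CPM in the library labelled itaconate replicate 3 and 47.7 to 80.1 CPM in the other 8. P4ha1, a collagen prolyl hydroxylase gene, was 312 CPM there, but the library labelled WT replicate 1 was higher, within a range of 102 to 329 CPM for the other 8. Vegfa, the angiogenic growth factor, spanned 39.0 to 75.8 CPM in the libraries labelled itaconate, 46.2 to 85.7 under the label KO and 48.5 to 50.8 under WT, with its highest value in the library labelled KO replicate 1. Ankrd37, an ankyrin repeat gene, spanned 18.2 to 31.9 CPM in the libraries labelled itaconate, 22.0 to 47.3 under the label KO and 22.3 to 52.4 under WT. Ndrg1, a stress-responsive gene, spanned 7.01 to 8.77 CPM in the libraries labelled itaconate, 6.49 to 15.03 under the label KO and 7.31 to 12.0 under WT. The groups overlapped for Vegfa, Ankrd37 and Ndrg1. Adm, which encodes the vasodilator peptide adrenomedullin, was near the limit of detection, with 7, 0 and 16 reads under the label itaconate, 22, 21 and 12 reads under KO and 14, 8 and 4 reads under WT. No difference in Adm was detectable at this depth.

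**Figure D2:**
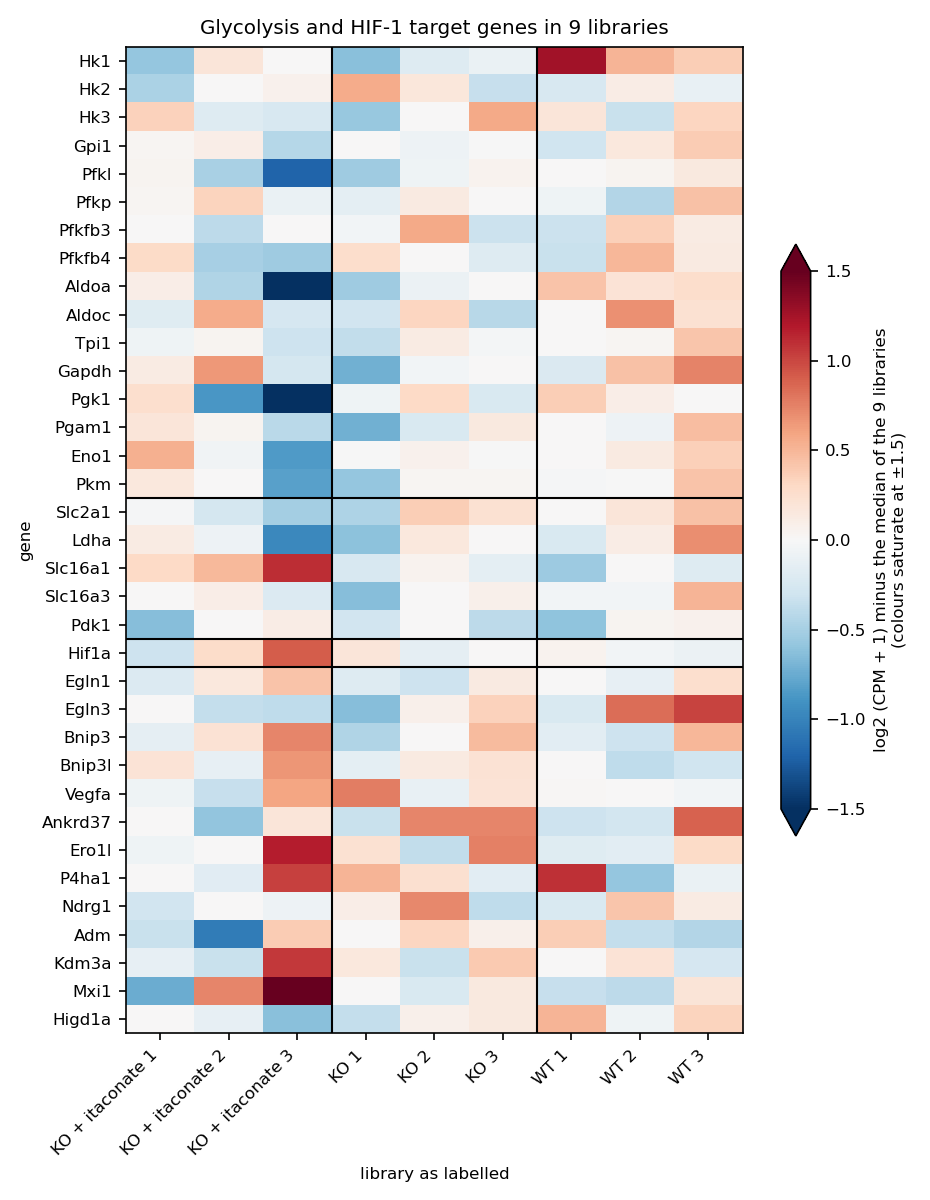
Log2 (CPM + 1) of each of the 35 genes minus its median over the 9 libraries (colour, saturating at ±1.5), with libraries in columns by label (KO with itaconate, KO, WT) and genes in rows by class. The library labelled itaconate replicate 3 is blue for Aldoa, Pgk1 and Pfkl, and red for Mxi1, Ero1l, Kdm3a, P4ha1, Slc16a1 and Hif1a.

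Itaconate added to knockout cells was compared with knockout cells first, over the labels itaconate and KO. None of the 35 genes passed the edgeR threshold, as none of the 10781 genes tested did (0% called). At an unadjusted p under 0.05, edgeR gave 895 genes (8.3%), of which 1 was a member, Slc16a1. At an adjusted p under 0.05, DESeq2 called 12 genes and limma-voom 0, with no member among them. Of the 16 enzymes, 5 were higher and 11 lower, with a median log2 fold change of -0.05. Of the 13 non-glycolytic HIF-1 targets, 7 were higher and 6 lower, with a median of 0.17. The median over all genes was -0.02, and 51.6% of them were lower. Groups did not overlap for 1 member, Slc16a1, which was higher, where 5.61% of all genes were higher without overlap, and for no member that was lower, where 5.29% of all genes were.

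The enzymes with the smallest p-values were Pgk1 (given above), Gapdh at 0.44 ± 0.34, Hk2 at -0.29 ± 0.29 and Pfkl at -0.30 ± 0.32. Beside Slc16a1, the transporters and Ldha gave -0.34 ± 0.29 for Slc2a1, 0.13 ± 0.29 for Slc16a3 and -0.12 ± 0.34 for Ldha. After Mxi1, the HIF-1 targets with the smallest p-values were Ankrd37 at -0.57 ± 0.39, Ndrg1 at -0.37 ± 0.37 and Egln1 at 0.26 ± 0.28. The smallest edgeR adjusted p among the enzymes was 0.722, and among the HIF-1 targets 0.61. Without the library labelled itaconate replicate 3, 11 of the 13 HIF-1 targets were lower (median -0.32) and 5 of the 16 enzymes were lower (median 0.07), so both medians turned their sign. Over all genes 51.8% were then lower. Without the 4 libraries that conflict with their labels, the medians were -0.02 for the HIF-1 targets and 0.15 for the enzymes. With pool as a term they were -0.37 and 0.07.

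The same libraries labelled itaconate were set against those labelled WT, a comparison that shares its itaconate libraries with the one above. No member and no gene passed the edgeR threshold (0% called). At an unadjusted p under 0.05, edgeR gave 957 genes (8.88%), 5 of them members (Slc16a1, Hk1, Egln3, Mxi1 and Aldoa). At an adjusted p under 0.05, DESeq2 called 17 genes and limma-voom 0, again with no member. Of the 16 enzymes, 1 was higher and 15 lower, with a median log2 fold change of -0.23, where 50.9% of all genes were lower and their median was -0.01. Of the 13 HIF-1 targets, 8 were higher and 5 lower, with a median of 0.10. When libraries were scaled by their totals alone that median was -0.01, but the median over all genes was then also lower, at -0.11. Groups did not overlap for 1 member that was higher, Slc16a1, where 7.3% of all genes were higher without overlap. They did not overlap for 3 that were lower, Hk1, Aldoa and Slc2a1, where 7.25% of all genes were.

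After Hk1 and Aldoa, the enzymes with the smallest p-values were Pgk1 at -0.80 ± 0.45 and Pfkl at -0.53 ± 0.32. Ldha differed by -0.48 ± 0.34 and Slc16a3 by -0.20 ± 0.29. After Egln3 and Mxi1, the HIF-1 targets were led by Bnip3l at 0.51 ± 0.28 and Higd1a at -0.51 ± 0.29. Leaving out the library labelled itaconate replicate 3 gave 12 of 16 enzymes lower (median -0.13) and 10 of 13 HIF-1 targets lower (median -0.22), where 51.2% of all genes were lower. Without the 4 conflicting libraries, which leaves 1 library labelled WT, all 16 enzymes were lower (median -0.31), as were 10 of the 13 HIF-1 targets (median -0.30). With pool as a term the medians were -0.19 for the enzymes and -0.59 for the HIF-1 targets. The enzyme median was below 0 in each of these settings, whereas that of the HIF-1 targets changed sign.

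The labels KO and WT, which name loss of Irg1, were compared last. Irg1 itself differed by 0.08 ± 2.35 between them (edgeR adjusted p 0.999). The labels thus did not separate the libraries by Irg1 level, and the effect of losing Irg1 cannot be read from them. This comparison shares its WT libraries with the one above and its KO libraries with the first. No member and no gene passed the edgeR threshold (0% called), at adjusted p-values of 0.995 or more. At an unadjusted p under 0.05, edgeR gave 337 genes (3.13%), 1 of them a member, Hk1. At an adjusted p under 0.05, DESeq2 called 1 gene and limma-voom 0, with no member. Of the 16 enzymes, 2 were higher (Hk2 and Pfkfb3) and 14 lower, with a median log2 fold change of -0.19, where 51.1% of all genes were lower with a median of -0.01. Of the 13 HIF-1 targets, 9 were higher and 4 lower, with a median of 0.11. Groups did not overlap for Hk1 and Aldoa, both lower, where 5.76% of all genes were lower without overlap, and for no member that was higher, where 4.85% of all genes were.

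After Hk1, the enzymes with the smallest p-values were Gapdh at -0.60 ± 0.34, Aldoa and Pgam1 at -0.38 ± 0.30. Slc16a3 differed by -0.32 ± 0.29, Ldha by -0.36 ± 0.34 and Slc2a1 by -0.13 ± 0.29. After Egln3, the HIF-1 targets were led by Vegfa at 0.34 ± 0.32, Higd1a at -0.31 ± 0.29 and Bnip3l at 0.30 ± 0.28. The enzyme median drew on both ends of the groups. The library labelled WT replicate 3 was the highest of 9 for 7 of 16 enzymes, and the library labelled KO replicate 1 was the lowest for 5. Without the first the median was -0.13 with 11 of 16 lower, and without the second it was -0.13 with 12 of 16 lower. Within pool 1, which holds all 3 libraries labelled WT and replicates 1 and 2 labelled KO, 13 of 16 enzymes were lower with a median of -0.28, and the HIF-1 targets had a median of 0.07. Without the 4 conflicting libraries the medians were -0.42 for the enzymes and -0.29 for the HIF-1 targets. That setting sets KO replicates 1 and 2 against WT replicate 3 alone, and so keeps both of the extreme libraries named above.

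**Figure D3:**
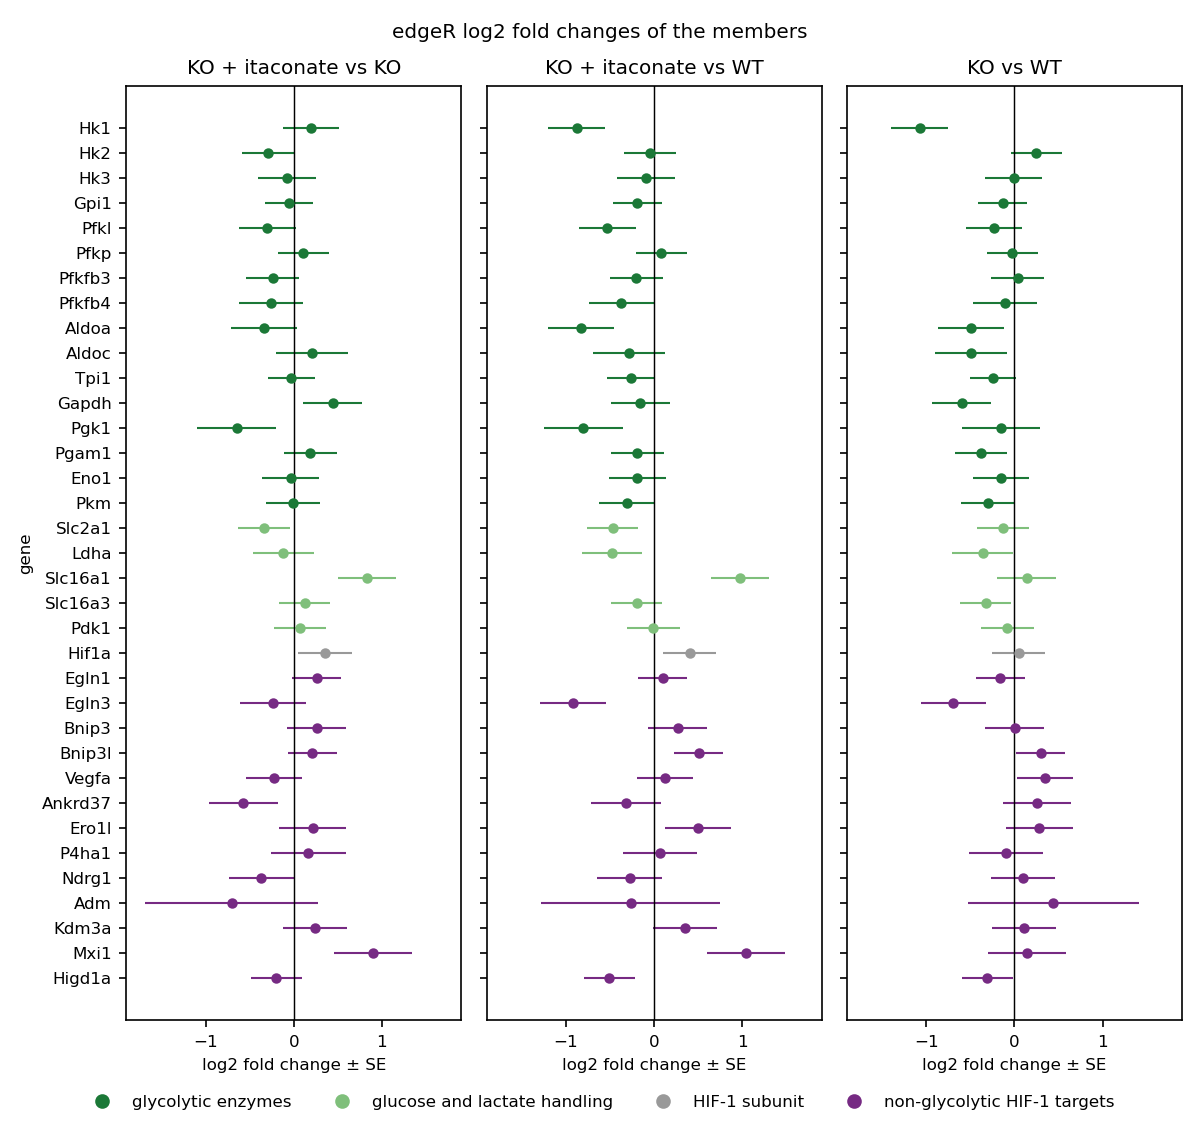
Log2 fold change ± SE from edgeR (horizontal axis) of each of the 35 genes in 3 comparisons of labelled groups, coloured by class. Most enzymes lie left of 0 against WT, in comparisons that share the same 3 libraries labelled WT. Slc16a1 lies right of 0 in both comparisons of itaconate, which share their itaconate libraries, and no gene passed the adjusted threshold.

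The enzymes and the HIF-1 targets separated most within 1 library. For each gene, log2 (CPM + 1) was set against its median over the 9 libraries. In the library labelled itaconate replicate 3 the median distance was -0.36 for the enzymes and 0.59 for the non-glycolytic HIF-1 targets, while that over all genes was 0. This library was the lowest of 9 for 7 of 16 enzymes and the highest for none of them. It was the highest for 7 of 13 HIF-1 targets and the lowest for 1, Higd1a. The 7 include Adm, near the limit of detection, at 1.69 CPM against 1.68 CPM in the library labelled WT replicate 1. Over all genes the library labelled itaconate replicate 3 was the lowest for 26.7% and the highest for 19.8%. An extreme value there was thus common outside these classes too.

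Aldoa was 3.71 times lower there than the median of the other 8 libraries, Pfkl 2.37 times and Ldha 2.04 times. Mxi1 was 3.50 times higher, Slc16a1 2.39 times, Ero1l 2.32 times, Kdm3a 2.20 times and Hif1a 1.91 times. Macrophage markers differed in direction in this library. It was the lowest of 9 for 7 of the 10, with Cd68 at 74.0 CPM against 225 to 409.9 CPM and Lyz2 at 1338 CPM against 2787 to 5314 CPM. It was the highest for 1, Ctsb, at 8773 CPM against 4094 to 8403 CPM. The sum of the 10 was 12691 CPM there, and the lowest sum, 11218 CPM, was that of the library labelled KO replicate 1. Reads outside annotated genes were 33.7% of its reads, against 23.1% to 28.4% in the others, and it was the only library of its pool. The part of these differences in the values above was not tested.

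In no other library were the class medians so far apart. They were 0.07 for the enzymes and -0.06 for the HIF-1 targets in the library labelled itaconate replicate 1, and 0 and -0.12 in replicate 2. Those labelled KO gave -0.33 and 0 in replicate 1, 0.01 and 0.07 in replicate 2, and -0.01 and 0.20 in replicate 3. Those labelled WT gave 0 and 0 in replicate 1, 0.12 and -0.16 in replicate 2, and 0.34 and 0.19 in replicate 3. In WT replicate 3 both classes were thus above 0, and in the library labelled KO replicate 1 the enzymes were below 0 while the HIF-1 targets were not. The 5 genes of glucose and lactate handling had a median of -0.46 in that library, also below 0.

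**Figure D4:**
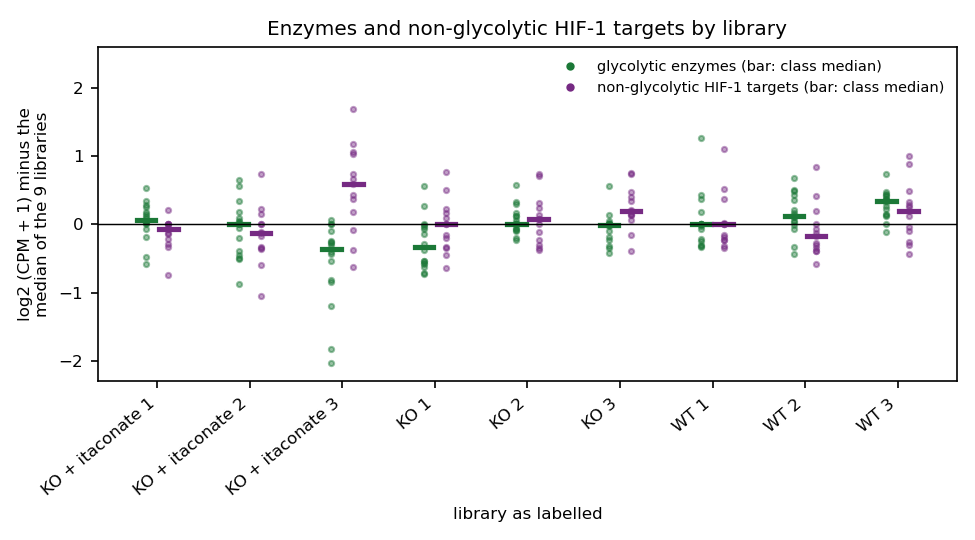
Log2 (CPM + 1) of each glycolytic enzyme and each non-glycolytic HIF-1 target minus its median over the 9 libraries (vertical axis), with 1 point per gene and the class median as a bar, for libraries by label (KO with itaconate, KO, WT). The class medians are -0.36 and 0.59 in the library labelled itaconate replicate 3 and lie closer together in the other 8.

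Other genes of these pathways were counted from lists that do not overlap the 35. None passed the edgeR threshold in any comparison. Over all genes tested, 51.6% were lower for itaconate against KO, 50.9% for itaconate versus WT and 51.1% for KO against WT, beside which the counts below stand. Groups did not overlap, higher and lower, for 5.61% and 5.29% of all genes for itaconate against KO. The shares were 7.3% and 7.25% for itaconate against WT, and 4.85% and 5.76% for KO against WT. The genes named below were picked for the smallest p-values of their lists. Of 17 tested of 24 other glycolysis genes, 8 were higher and 9 lower under the label itaconate than under KO, 7 and 10 under itaconate than under WT, and 6 and 11 under KO than under WT. Galm, a sugar mutarotase, stood at 6.74, 5.81 and 3.59 CPM in the 3 libraries labelled itaconate, at 3.08, 5.29 and 5.61 CPM in the 3 labelled KO and at 7.91, 8.90 and 10.0 CPM in the 3 labelled WT. Its values labelled itaconate and KO lay below those labelled WT. Tigar, which lowers the activator of phosphofructokinase, had 6.18, 3.40 and 6.02 CPM with itaconate, 7.72, 7.71 and 11.6 CPM under the label KO and 6.00, 6.87 and 8.42 CPM under WT. Its values labelled itaconate lay below those labelled KO.

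Of 11 tested of 12 genes for the entry of pyruvate into mitochondria, 5 were higher and 6 lower in each of the 3 comparisons. The 2 with the smallest p-values were Pdk3, a pyruvate dehydrogenase kinase, at -0.51 ± 0.33 for itaconate against WT, and Pdp1, the opposing phosphatase, at -0.52 ± 0.35 for KO against WT. All 11 genes of the pentose phosphate pathway were tested, of which 9 were higher and 2 lower with itaconate than under KO, 6 and 5 with itaconate than under WT, and 3 and 8 under KO than under WT. Rpe, an epimerase of that pathway, differed by 0.61 ± 0.28 for itaconate against WT, and G6pdx, its first enzyme, by -0.68 ± 0.36.

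Of 11 tested of 14 HIF pathway regulators, 8 were higher and 3 lower under the label itaconate than under KO, 9 and 2 under itaconate than under WT, and 5 and 6 under KO than under WT. Cited2, which competes with HIF-1 for a shared coactivator, measured 49.7, 69.9 and 60.9 CPM in the libraries labelled itaconate, against 39.2, 43.1 and 42.9 CPM in those labelled KO and 36.9, 45.7 and 34.5 CPM in those labelled WT. All 3 values labelled itaconate lay above all 6 others. In this list, 2 genes were higher and 0 lower without overlap for itaconate against KO. Against WT, 2 were higher and 1 lower. Cul2, the scaffold of the ligase that destroys the HIF-1 subunit, differed by 0.59 ± 0.28 for itaconate against KO.

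Of 22 tested of 26 other non-glycolytic HIF-1 targets, 14 were higher and 8 lower under the label itaconate than under KO, 13 and 9 under itaconate than under WT, and 9 and 13 under KO than under WT. Zfp36l1, an RNA-decay factor gene, stood at 406, 543 and 609 CPM in the 3 libraries labelled itaconate, at 315, 211 and 327 CPM in the 3 labelled KO and at 293, 374 and 235 CPM in the 3 labelled WT. All 3 values labelled itaconate lay above all 6 others, at an edgeR adjusted p of 0.507 against KO and 0.524 against WT. In this list, 2 genes were higher and 2 lower without overlap for itaconate against KO. Against WT, 1 was higher and 1 lower. Tfrc, the transferrin receptor, had 48.7, 86.3 and 349 CPM with itaconate, 42.8, 63.1 and 68.5 CPM under the label KO and 44.4, 55.3 and 65.4 CPM under WT. Its highest value was again that of the library labelled itaconate replicate 3, with replicate 2 next and replicate 1 inside the range of the other groups.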

How the data were processed

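Messenger RNA of LPS-treated mouse macrophages was counted in 9 libraries, 3 in each labelled group. The authors deposited a single table of unnormalised counts, with 22165 gene rows and 5 summary lines of the counter. Per the submitters' processing notes, STAR, HTSeq and the mm10 build were used. Of tool versions, annotation release and filters, none is given in the sources used here. No molecular identifier is mentioned, so copies of 1 molecule count separately.

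Symbols and GRCm38 positions came from GENCODE for 21745 identifiers. The 5 summary lines were dropped before scaling and testing. They held the reads in no annotated gene (23.1% to 33.7% of a library) and those with several alignments (17.1% to 20.0%). Counts were tested with edgeR 4.0.16 in R 4.3.3 (quasi-likelihood F test, two-sided), with all 9 libraries in 1 fit, group as the only term and TMM scaling. The filter by expression (minimum count 10) left 10781 genes, all 35 members among them. P-values were adjusted over all of them (Benjamini-Hochberg, threshold 0.05). The fit was checked on simulated counts. Alternatives were 21 other settings, among them DESeq2 1.42.0, limma-voom (limma 3.58.1), other scalings and filters, a replicate block, a pool term and each library left out.

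The members, classes and other lists were chosen with earlier results of these data known, so no test was made of a list and counts stand beside those over all genes. Every member is given with its values. Differences are named first for the 4 members of a class with the smallest p, and for the 2 such genes of each other list. Near-identical copies were annotated transcripts matching the last 400 bases of a member at 95% identity or more over at least 200 bases. Core motifs were searched in RefSeq promoter windows of GRCm38.p6.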

Additional observations from a re-analysis of the deposited data

How the results depend on the processing

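No member passed the threshold under any of the 21 other settings, and the smallest adjusted p of a member over all of them was 0.119 (Mxi1, itaconate against WT). The number of genes called by edgeR was 0 in each comparison. DESeq2 called 12 genes for itaconate against KO, 17 for itaconate against WT and 1 for KO against WT. Without a filter on low counts 80 and 92 genes were called in the comparisons of itaconate with KO and with WT. Leaving out 1 library at a time gave 0 to 6 genes for itaconate against KO, 0 to 4 for itaconate against WT and 0 for KO against WT, with both highest counts reached without the library labelled itaconate replicate 1. Without the 4 libraries whose Irg1 reads conflict with their labels, a setting added after the data were seen, 216, 1 and 2 genes were called in the same order, with 1 library labelled WT assumed to vary like the other groups.

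The enzyme medians moved from their reported values by less than 0.32 (the SD of the class median between libraries of a group) under every setting run, although the sign changed for itaconate against KO under some. Over libraries left out in turn they ranged from -0.18 to 0.07 for itaconate against KO, -0.38 to -0.13 for itaconate against WT and -0.31 to -0.13 for KO against WT. The medians of the HIF-1 targets moved by more than their SD of 0.29 under some settings. For itaconate against KO they ranged from -0.32 to 0.25 over libraries left out and were -0.37 with pool as a term. For itaconate against WT they ranged from -0.22 to 0.30, and were -0.59 with pool as a term and -0.30 without the 4 conflicting libraries. For KO against WT they ranged from 0.05 to 0.17, and were -0.29 without those 4. With pool as a term, the sign changed for 19 of the 35 members for itaconate against KO, 12 for itaconate against WT and 5 for KO against WT. In 4 of these both values exceeded their SE: Pgk1 to 0.50 and Mxi1 to -0.90 for itaconate against KO, and Ero1l to -0.86 and Mxi1 to -0.85 for itaconate against WT. The cause was not tested.

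The replicate numbers are not stated to pair libraries, and the deviations of same-numbered libraries correlated between -0.16 and 0.24, not above 0.1 in every pair. A fit with the replicate number as a block called 0 genes in each comparison, with enzyme medians of -0.05, -0.26 and -0.20 and HIF-1 target medians of 0.15, 0.09 and 0.07 for itaconate against KO, itaconate against WT and KO against WT.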
